A study of Mus musculus with 6 samples.

Results

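Voltage-gated and pacemaker ion channel genes were taken as all mouse genes whose symbol begins with Cacna, Cacnb or Cacng (calcium channels), Scn followed by a number and a or b (sodium channels), Kcn (potassium channels) or Hcn followed by a number (pacemaker channels), leaving out Kcnq1ot1. The rule uses names only and no measured value, but members were chosen with earlier results of these data known, so the set as a whole was not tested. It found 141 genes, of which 138 code for protein and 3 are antisense RNAs. No probe was matched to 5 of them, 48 had probes too dim to test, and 88 were tested among 21798 genes in all.

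The study measured gene expression on 6 single-colour Agilent mouse arrays in hearts dissected at embryonic day 9.5, taken as the heart tube together with pharyngeal mesoderm and endoderm from below it. The mutant embryos were labelled Arid3b-null and the others wild type, with no strain, allele or Cre given, so that loss of Arid3b is not described as limited to any cell type. Arid3b codes for a factor that binds AT-rich DNA. Each group had 3 pools of 4 embryos, so values describe pools and not single hearts.

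Ion channels are membrane proteins that let selected ions pass when the voltage across the membrane changes or a ligand binds. In heart muscle, sodium channels carry the fast upstroke of the action potential, calcium channels carry the plateau and trigger contraction, and potassium channels bring the membrane back to rest. Pacemaker channels of the Hcn family and low-threshold calcium channels drive the spontaneous beat, which has already begun in the mouse at this stage. A pore-forming subunit conducts the ion, and auxiliary subunits set its gating and its delivery to the membrane.

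All values are log2 signals of a probe relative to the 75th percentile of its array, and a change is the null mean minus the wild-type mean on this scale, so that a negative level only means a probe dimmer than that percentile. Levels of different probes are not compared. A gene is called higher or lower at an adjusted p under 0.05 with limma, two-sided and adjusted over all genes tested, and intervals are 95% confidence intervals from the same fit. Precision is limited by having 3 arrays in each group.

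Arid3b itself had log2 signals of 1.08, 0.52 and 0.45 in the null pools, against 2.91, 3.40 and 3.69 in the wild-type pools, a change of −2.65. Its groups did not overlap, and its other kept probes changed by −2.58 and −4.02. Between 27136 and 29149 spots were well above background on the null arrays, and between 29139 and 31039 on the wild-type arrays, of 43020 on each, and saturation was seen in 0 spots. At the 75th percentile the log2 signal was 9.02 to 9.47 on the null arrays and 9.5 to 10.16 on the wild-type arrays. The groups did not overlap in this brightness, and its part in the results was not tested. Each of 3 slides held the null and the wild-type pool of the same number, with the wild-type array in the same place on every slide, so place and genotype cannot be told apart. Heart muscle was plainly present: all 14 cardiomyocyte markers were tested, with Nppa higher in null (change 1.27) and the others not called, and with a summed linear signal of 2026 to 2552 times the percentile level in null and 1924 to 2276 in wild-type pools.

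Of the 88 channel genes tested, 9 were higher and 6 lower in the null hearts, and 73 did not pass. In RNA from whole tissue, fewer cells of a type and less RNA per cell cannot be told apart. The 15 called are 17.0% of the tested channel genes, against 10.5% called over all genes, where 6.64% were higher and 3.81% lower. The median change over the channel genes was 0.05, against 0.03 over all genes, and the changes ran from −2.48 for Scn4b to 2.69 for Kcne3. The null and wild-type pools did not overlap for 32 channel genes, 18 higher and 14 lower in null, which is 36.4% against 32.9% of all genes. An unadjusted limma p under 0.05 was reached by 32 of the 88 channel genes, against 5865 of all 21798 genes tested. Without null pool 2, or without wild-type pool 2, 5 channel genes were called higher and 4 lower. Normexp background correction left 2 lower, as did the slide block, a fit that called 3.4% of all genes. The share of all genes called is not given here for the fits without a pool or with normexp correction. Those counts are a description only. Scaling each array to its median in place of the 75th percentile gave 8 higher and 10 lower channel genes. That scaling moved the median of all genes to −0.11 and the split over all genes to 1104 higher and 1399 lower, against 1447 and 831. Kcnip1, well above background on 0 null and 3 wild-type arrays, is among those 10 and in both counts of 32. It entered the test through the group where it is high, so its place in these counts is a description only.

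Among 18 calcium channel genes tested, 0 were higher and 2 lower, with a median change of −0.03. Of 11 sodium channel genes, 1 was higher and 2 lower, and their median change was −0.00. None of the 3 pacemaker genes tested was called. The 56 potassium channel genes held 8 higher and 2 lower, with a median of 0.11. Scaling to the array median turned the 2 lower into 6, among them Kcnip1, which entered the test through the wild-type arrays. In the main fit, 11.1% of calcium, 27.3% of sodium and 17.9% of potassium genes tested were called, against 10.5% of all genes. Counts by ion or class, here and below, are to be read beside 6.64% of all genes called higher and 3.81% lower. Differences between ions in these shares were not tested.

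**Figure D1:**
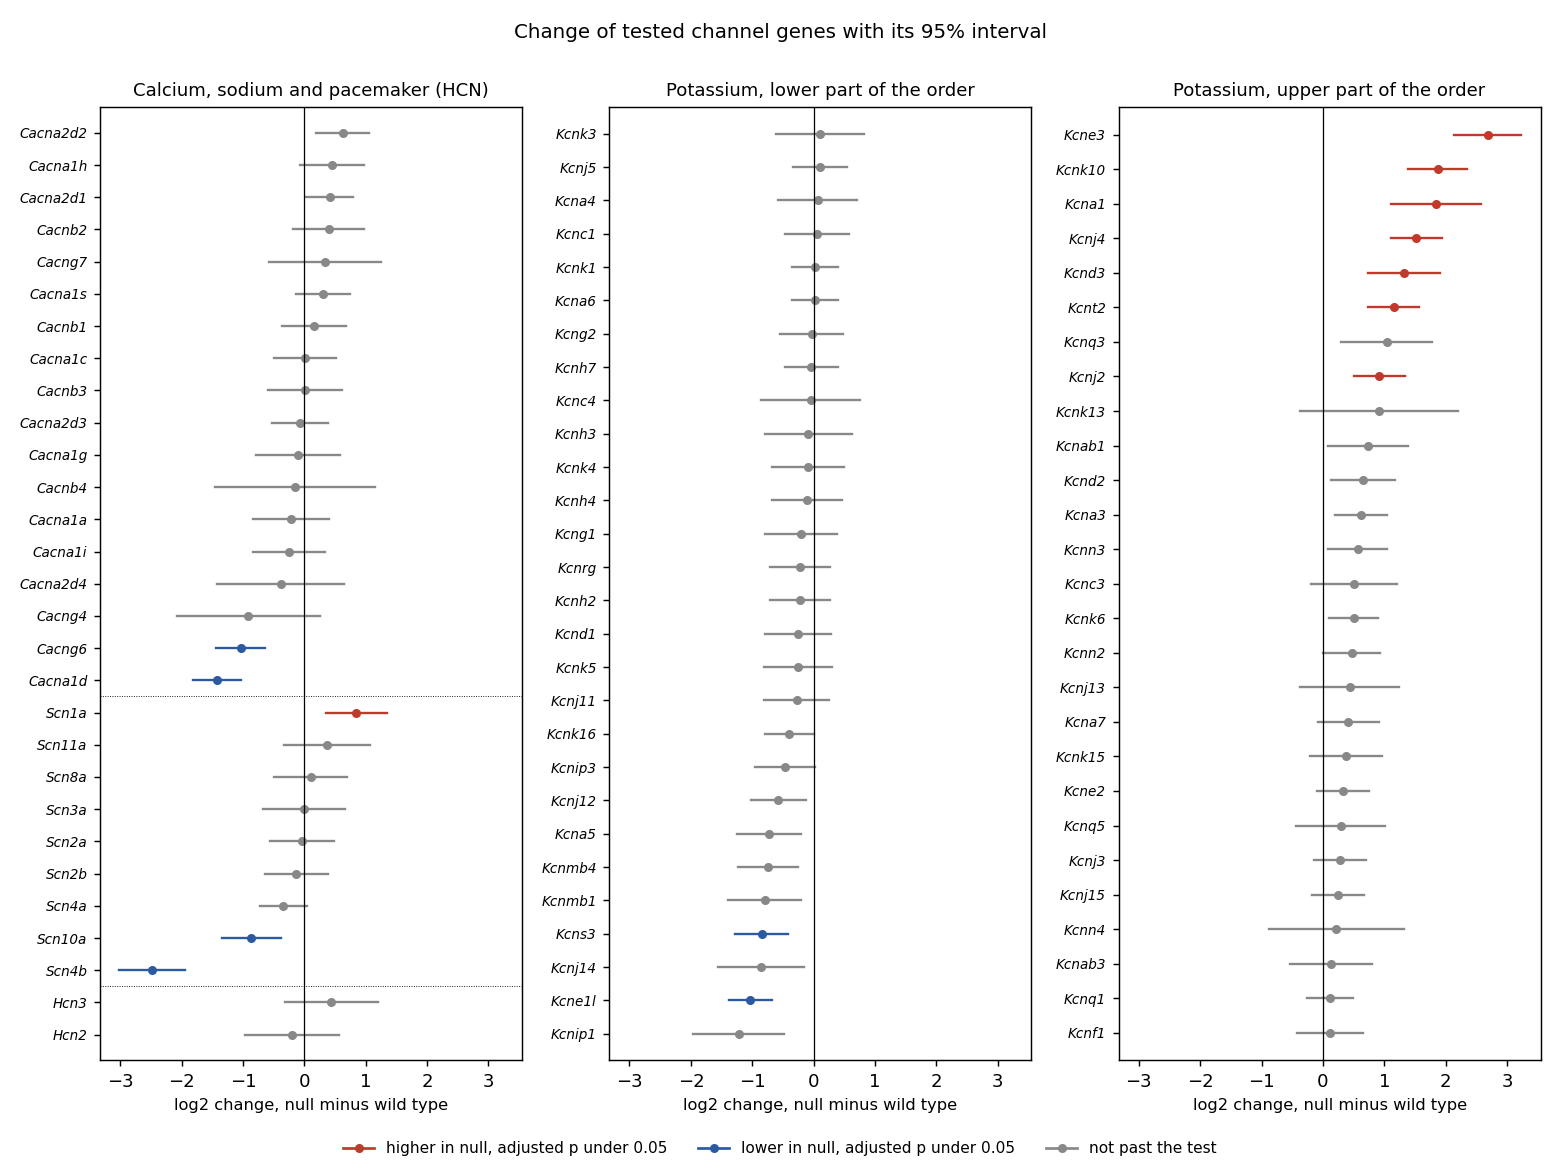
Change of 84 of the 88 tested channel genes (log2, null minus wild type, horizontal axis) with its 95% confidence interval, sorted by size within calcium, sodium and pacemaker genes in the left panel and over potassium genes in the other panels. The genes called higher in null (red) lie at 0.85 or above, those called lower (blue) at −0.85 or below, and most intervals of the other genes (grey) cross 0.

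Calcium channel pores were tested for 7 genes, and Cacna1d was the one called. Cacna1d codes for the low-threshold L-type pore that supports pacemaking in the sinoatrial node. It had log2 signals of −3.97, −4.03 and −4.33 in the null pools, against −2.77, −2.59 and −2.72 in the wild-type pools. Every null pool was below every wild-type pool, by more than the spread within either group. The means were −4.11 ± 0.19 in null and −2.69 ± 0.09 in wild type (SD, n = 3 each), a fall of 2.67-fold (log2 change −1.42, SE 0.17, limma adjusted p = 0.00358). The difference was −1.20, −1.44 and −1.61 within the 3 slides, and a fit with slide as block gave an adjusted p of 0.0255. A dimmer probe of the gene changed by −0.83, with null pools at −4.21, −5.03 and −5.22 and wild-type pools at −4.15, −4.24 and −3.57. On that probe null pool 1 lay inside the wild-type range.

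The promoter windows of Cacna1d, Scn4b and Kcne3 are printed where each gene is described, because these are the called genes with the largest change in their direction or, for Cacna1d, the called pore most tied to the heart beat. Each window runs from 250 bases before to 50 bases after an annotated start, 5′ to 3′ on the gene's strand, as given by RefSeq on build GRCm38.p6. Capitals mark 2 kinds of word found on either strand. One kind is the core bound by hypoxia-inducible factors, ACGTG or GCGTG, of which the first can also lie inside the E-box CACGTG. The other is an AT-rich word of the ARID3A motif, ATTAAA or ATCAAA, ARID3A being a close relative of the missing factor. Cacna1d has 2 windows on the minus strand, an AT-rich one with 40.3% G or C and 1 AT-rich word, and a G- and C-rich one with 87.3% G or C and 2 hypoxia cores.
Cacna1d promoter at chr14:30491107-30491406: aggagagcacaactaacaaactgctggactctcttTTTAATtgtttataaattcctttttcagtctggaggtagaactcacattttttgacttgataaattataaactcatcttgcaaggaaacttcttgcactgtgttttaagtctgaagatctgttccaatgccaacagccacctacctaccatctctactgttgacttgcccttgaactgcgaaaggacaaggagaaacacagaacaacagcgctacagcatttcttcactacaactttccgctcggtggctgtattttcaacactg
Cacna1d promoter at chr14:30353437-30353736: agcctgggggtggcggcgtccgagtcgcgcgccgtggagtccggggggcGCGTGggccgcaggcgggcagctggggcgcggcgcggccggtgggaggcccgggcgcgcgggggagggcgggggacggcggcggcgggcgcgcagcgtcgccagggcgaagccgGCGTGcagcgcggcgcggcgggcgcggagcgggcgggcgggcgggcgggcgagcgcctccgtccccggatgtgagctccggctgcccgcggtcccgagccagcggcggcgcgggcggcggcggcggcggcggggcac

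The pore best known for the working heart, Cacna1c, which carries the main L-type current, did not pass the test. Cacna1c had log2 signals of −5.24, −4.86 and −5.31 in null and −5.46, −5.15 and −4.83 in wild-type pools, a change of 0.01 with an interval of −0.49 to 0.52 (limma adjusted p = 0.978). The groups overlapped fully, and the interval leaves room for a change in either direction. The T-type pores, which open at low voltage and are prominent in embryonic heart, did not pass either. Cacna1g stood at −2.27, −2.66 and −2.99 in null and −2.60, −3.00 and −2.02 in wild type (change −0.10, interval −0.79 to 0.58). Cacna1h stood at 1.11, 1.83 and 1.55 in null and 1.16, 1.14 and 0.82 in wild type (change 0.46, interval −0.07 to 0.98). The other pores tested, those of Cacna1a, Cacna1i and Cacna1s, changed by −0.25 to 0.31 on their brightest probes. For Cacna1i that was −0.25, while its other probe changed by 0.29.

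Calcium channel auxiliary subunits were tested for 11 genes, with a median change of 0.01. Cacng6, a gamma subunit related to that of skeletal muscle, was the one called, at −4.01, −3.87 and −4.25 in null against −2.88, −3.15 and −2.99 in wild-type pools. The groups did not overlap (change −1.03, SE 0.17, limma adjusted p = 0.0121). Under the slide block its adjusted p was 0.0738, and with normexp background correction it was 0.146, so the call was lost in both. Among the alpha-2-delta subunits, which bring pores to the membrane, Cacna2d2 was one of the 2 members with a positive change that came nearest the threshold without passing it. Cacna2d2 stood at 4.55, 4.50 and 4.61 in null and 3.95, 4.22 and 3.63 in wild-type pools, without overlap, and the change of 0.62 (interval 0.19 to 1.06) had a limma adjusted p of 0.0783. Its other probe changed by −0.00, so its probes disagree. Cacna2d1 was at −0.93, −0.93 and −1.05 in null and −1.43, −1.54 and −1.18 in wild type, a change of 0.41 with an interval of 0.04 to 0.79 (limma adjusted p = 0.153). Cacnb2, the beta subunit of the cardiac L-type channel, changed by 0.39 with an interval of −0.18 to 0.97. The other probe of Cacnb2 changed by −0.14, in the opposite direction.

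Sodium channel auxiliary subunits held the largest fall of the family. Scn4b, the beta-4 subunit that shapes the resurgent sodium current, had log2 signals of −4.21, −4.03 and −3.50 in null against −1.28, −1.34 and −1.69 in wild-type pools. The highest null pool lay well below the lowest wild-type pool. The means were −3.91 ± 0.37 in null and −1.44 ± 0.22 in wild type (SD, n = 3 each), 5.57-fold lower in null (log2 change −2.48, interval −3.01 to −1.94, limma adjusted p = 0.00152). Within slides it differed by −2.93, −2.69 and −1.81, and the slide block gave an adjusted p of 0.00634. The single window of Scn4b lies on the plus strand, has 66.3% G or C and holds 1 hypoxia core.
Scn4b promoter at chr9:45138374-45138673: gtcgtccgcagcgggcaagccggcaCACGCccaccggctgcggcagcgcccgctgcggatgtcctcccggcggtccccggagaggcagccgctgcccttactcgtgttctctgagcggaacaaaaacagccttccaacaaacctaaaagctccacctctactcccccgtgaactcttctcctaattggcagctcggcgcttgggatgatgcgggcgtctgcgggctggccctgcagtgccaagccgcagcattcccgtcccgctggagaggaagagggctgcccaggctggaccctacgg

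Scn2b, a further beta subunit whose gene is the next protein-coding gene to Scn4b on mouse chromosome 9, stood at −0.92, −1.71 and −1.20 in null and −1.22, −1.06 and −1.16 in wild type. The wild-type pools lay within the null range, and the change was −0.13 (interval −0.65 to 0.39, limma adjusted p = 0.758). Scn3b had no matched probe. Whether the change of Scn4b differs from that of Scn2b was not tested.

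Of 8 sodium channel pores tested, 1 was higher and 1 lower. Scn10a, a pore best known from sensory neurons and coded on chromosome 9, was called lower. It stood at −3.21, −3.31 and −2.66 in null against −2.22, −2.18 and −2.19 in wild-type pools, a change of −0.86 (SE 0.20, limma adjusted p = 0.0392). Null pool 3 was the closest to wild type. The call was lost under the slide block (limma adjusted p = 0.132) and without null pool 1 (0.0874), null pool 2 (0.135), wild-type pool 1 (0.0811), wild-type pool 2 (0.123) or wild-type pool 3 (0.101). Scn11a, the following gene on the chromosome, changed by 0.37.

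Scn1a, a pore of brain and heart, was called higher on its brightest probe. It stood at −5.11, −4.78 and −4.46 in null against −5.86, −5.53 and −5.52 in wild-type pools, a change of 0.85 (SE 0.21, limma adjusted p = 0.0458). The groups did not overlap, but the second probe of the gene changed by 0.16. The mean of both probes gave an adjusted p of 0.319, the slide block 0.115, and the values without null pool 2, null pool 3, wild-type pool 1, wild-type pool 2 and wild-type pool 3 were 0.134, 0.132, 0.11, 0.115 and 0.0946. Scn1a kept its call in 2 of 14 alternatives, the fewest of the called genes. Scn2a, Scn3a, Scn4a and Scn8a changed by −0.34 to 0.11 on their brightest probes, none of them past the test. A dimmer kept probe of Scn2a changed by 0.72 without overlap, against −0.04 on its brightest probe, so the probes of Scn2a disagree.

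Pacemaker channels open when the membrane is driven to negative voltage. Hcn4, the main pacemaker channel of the sinoatrial node, was well above background on 1 array, a wild-type one, and was not tested. Hcn2 stood at 2.88, 4.09 and 3.75 in null and 4.12, 3.74 and 3.48 in wild type, a change of −0.20 with an interval of −0.97 to 0.56. The other probe of Hcn2 changed by 0.46, in the opposite direction. Hcn3 stood at −4.10, −4.45 and −4.71 in null and −5.53, −4.73 and −4.32 in wild type, again with overlap (change 0.44, interval −0.31 to 1.19).

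**Figure D2:**
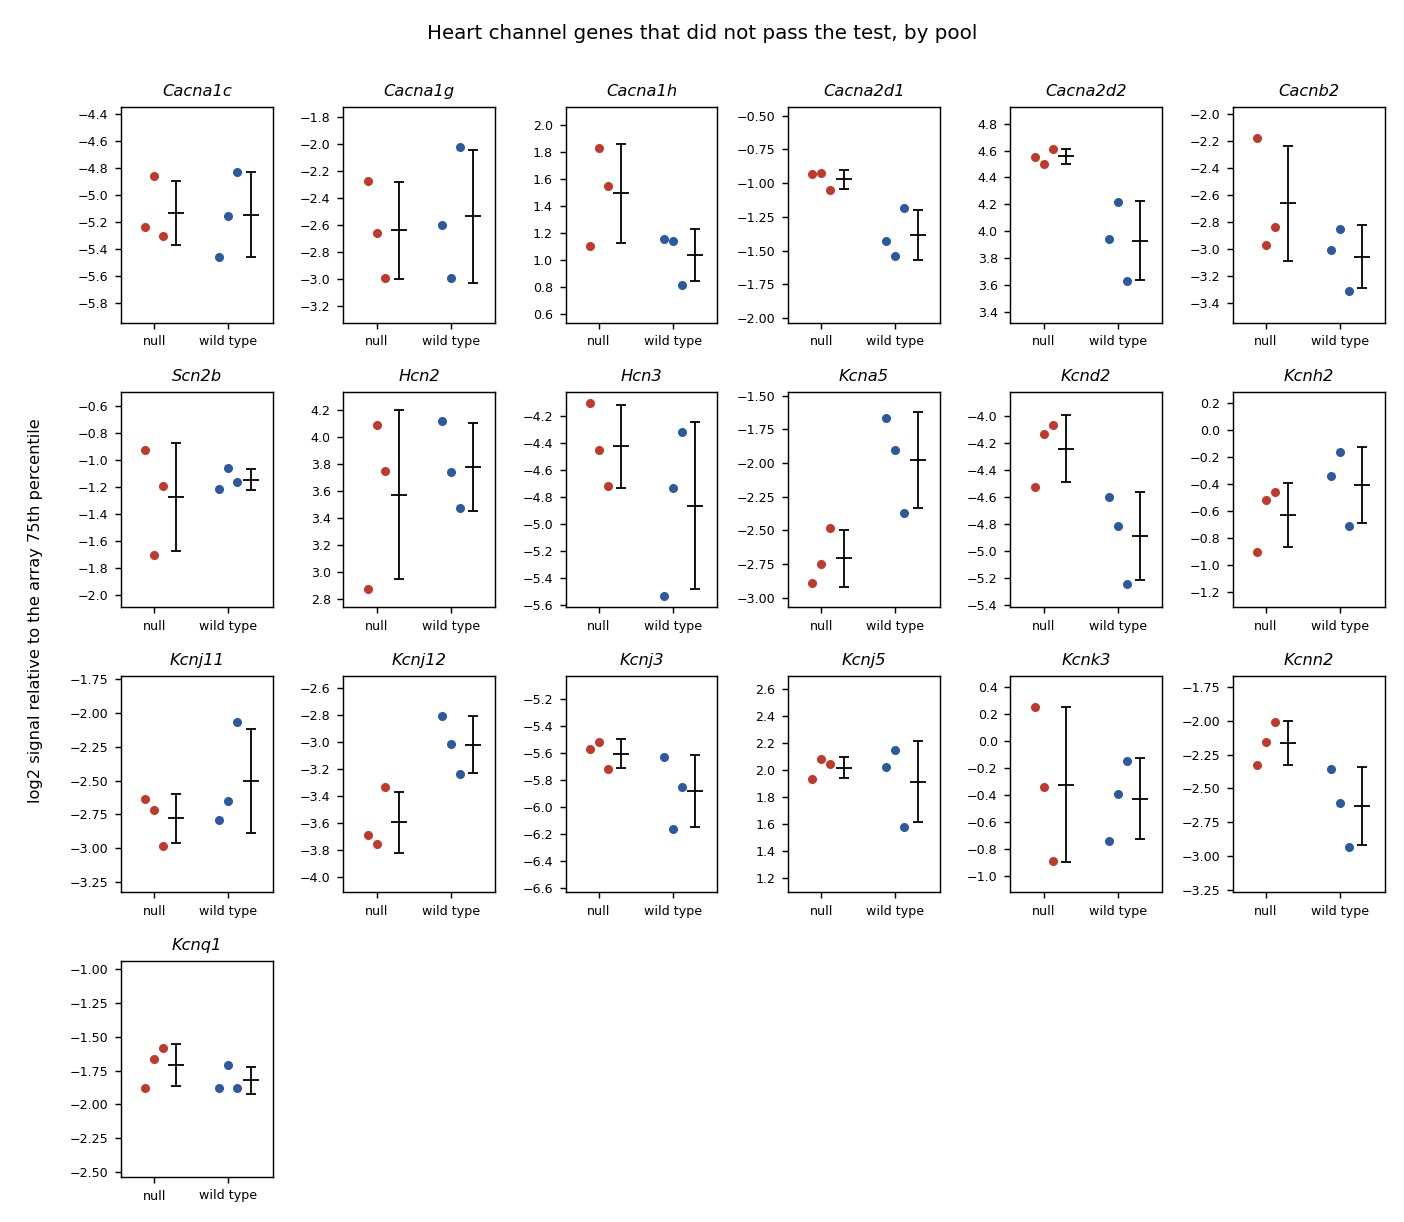
Log2 signal relative to the array's 75th percentile (vertical axis) of textbook heart channel genes that did not pass the test, by pool, with null pools (red) left of wild-type pools (blue) and the bars giving mean ± SD of 3 pools. The pools of both groups overlap for Hcn2, Kcnk3 and Cacna1c and stand apart for Kcna5 and Cacna2d2.

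Potassium channel auxiliary subunits held the largest rise of the family. Kcne3, a single-pass subunit that holds the Kcnq1 pore open, had log2 signals of 0.06, 0.03 and −0.68 in null against −2.80, −3.06 and −2.78 in wild-type pools. Null pool 3 was the lowest null pool and still stood far above the wild-type pools. The means were −0.19 ± 0.42 in null and −2.88 ± 0.16 in wild type (SD, n = 3 each), 6.43-fold higher in null (log2 change 2.69, interval 2.14 to 3.23, limma adjusted p = 0.00132). The difference was 2.86, 3.09 and 2.10 within slides, with an adjusted p of 0.00408 under the slide block. A second probe, designed on another transcript, changed by 2.58. Both windows of Kcne3 lie on the plus strand of chromosome 7, and each holds 1 hypoxia core.
Kcne3 promoter at chr7:100176420-100176719: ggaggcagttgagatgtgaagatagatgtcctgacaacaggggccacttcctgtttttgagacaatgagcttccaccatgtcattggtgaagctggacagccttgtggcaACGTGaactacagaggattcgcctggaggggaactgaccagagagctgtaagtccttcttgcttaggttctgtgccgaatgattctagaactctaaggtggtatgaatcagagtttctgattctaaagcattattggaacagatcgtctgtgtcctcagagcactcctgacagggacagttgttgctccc
Kcne3 promoter at chr7:100178433-100178732: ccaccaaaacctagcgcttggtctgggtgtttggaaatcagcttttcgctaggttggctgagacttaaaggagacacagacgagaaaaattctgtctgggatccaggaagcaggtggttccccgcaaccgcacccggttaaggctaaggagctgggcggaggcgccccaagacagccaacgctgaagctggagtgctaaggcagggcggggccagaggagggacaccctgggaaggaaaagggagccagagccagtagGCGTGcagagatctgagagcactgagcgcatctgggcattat

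Kcne1l, the X-linked relative of Kcne3 that is also known as Kcne5 and dampens the Kcnq1 current, was called lower. It stood at −2.80, −2.76 and −2.54 in null against −1.64, −1.73 and −1.64 in wild-type pools, a change of −1.03 (SE 0.15, limma adjusted p = 0.00822). The means were −2.70 ± 0.14 in null and −1.67 ± 0.05 in wild type (SD, n = 3 each), far apart for their spread. Its second probe changed by −0.72, and the slide block gave an adjusted p of 0.066, above the threshold. Kcne1, the classic partner of Kcnq1 in the slow delayed rectifier, was not above background on any array. Kcnq1 itself, the pore these subunits share, stood at −1.88, −1.66 and −1.58 in null and −1.88, −1.71 and −1.88 in wild type, a change of 0.11 (interval −0.26 to 0.48, limma adjusted p = 0.697). The groups overlapped for the pore, while its partners Kcne3 and Kcne1l were called in opposite directions.

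Among the other potassium auxiliary subunits, Kcnip1 and Kcnmb4 were the 2 members with a negative change that came nearest the threshold without passing it. Kcnip1, a calcium-binding partner of the Kv4 pores, stood at −6.57, −6.95 and −7.51 in null and −6.10, −6.04 and −5.24 in wild-type pools. It was well above background on 0 null and 3 wild-type arrays, so it is given as at least 1.43-fold lower in null, the bright mean set against the dimmest signal called above background. It entered the test through the group where it is high, so its limma adjusted p of 0.0529 is given as a description only. Kcnmb4, a beta subunit of the large-conductance calcium-activated channel, stood at −0.89, −0.51 and −0.26 in null and 0.42, 0.08 and 0.09 in wild type. The groups did not overlap, and both of its probes changed by similar amounts (−0.75 and −0.80, limma adjusted p = 0.0641 for the first and 0.0257 for their mean). Kcnip2, the main heart partner of the Kv4 pores, was not above background on any array. The class of 10 tested auxiliary genes had a median change of −0.34.

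Voltage-gated potassium pores made the largest class, with 24 genes tested, 3 higher, 1 lower and a median change of 0.06. Kcns3, a silent subunit that conducts only in company with another pore, was called lower. It stood at −3.41, −3.62 and −3.50 in null against −2.89, −2.37 and −2.74 in wild type, without overlap (change −0.85, SE 0.18, limma adjusted p = 0.0304). Under the slide block its adjusted p was 0.14. Without null pool 1, null pool 2, null pool 3, wild-type pool 2 or wild-type pool 3 it was 0.0506, 0.112, 0.088, 0.0962 or 0.0733, each above the threshold.

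Kcna1, a fast-opening pore that limits firing in axons, stood at −2.55, −2.42 and −2.77 in null against −3.72, −4.60 and −4.96 in wild-type pools. Wild-type pool 1 was the closest to the null pools but did not overlap them. The change was 1.85 (interval 1.11 to 2.58, 3.59-fold, limma adjusted p = 0.0133), and 1.17, 2.18 and 2.19 within slides. Without null pool 2 or wild-type pool 2 its adjusted p was 0.0527 or 0.0651. Kcna5, the pore of the ultrarapid atrial current and a neighbour of Kcna1 on chromosome 6, stood at −2.89, −2.75 and −2.48 in null and −1.67, −1.90 and −2.37 in wild type, a change of −0.73 (interval −1.25 to −0.21, limma adjusted p = 0.0837). It passed under scaling to the array median, at 0.0412, and its second probe changed by −0.22. Kcna6, on the other side of Kcna1, changed by 0.03.

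Kcnd3, a pore of the transient outward current, stood at −1.61, −1.73 and −1.87 in null against −2.51, −3.27 and −3.39 in wild-type pools. The groups did not overlap, although wild-type pool 1 stood apart from the other wild-type pools in the direction of null. The change was 1.32 (SE 0.25, 2.50-fold, limma adjusted p = 0.0201), and its within-slide differences were 0.90, 1.54 and 1.52 with an adjusted p of 0.04 under the block. Without null pool 2, wild-type pool 2 or wild-type pool 3 the adjusted p was 0.0698, 0.0831 or 0.0646, and without the filter on dim probes 0.0529. Kcnd2, the other heart pore of this current, stood at −4.53, −4.13 and −4.06 in null and −4.60, −4.81 and −5.24 in wild type, a change of 0.65 (interval 0.13 to 1.17, limma adjusted p = 0.114). Kcna3, a pore best known from lymphocytes and the other member with a positive change nearest the threshold, stood at −4.30, −4.59 and −4.70 in null and −5.06, −5.04 and −5.37 in wild type (change 0.62, interval 0.20 to 1.05, limma adjusted p = 0.0715). Kcnh2, the pore of the rapid delayed rectifier, changed by −0.22 with an interval of −0.71 to 0.26.

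Inward rectifiers hold the resting potential of heart muscle. Of 9 tested, 2 were higher in null, with a median change of 0.25. Kcnj4, found in heart and brain, stood at −1.31, −1.13 and −1.36 in null against −2.99, −2.55 and −2.84 in wild-type pools, with little spread in either group. Its change was 1.52 (SE 0.18, 2.87-fold, limma adjusted p = 0.00346), and 1.68, 1.41 and 1.48 within slides, with an adjusted p of 0.0186 under the block. Kcnj2, the main inward rectifier of ventricular muscle, stood at −6.06, −6.24 and −6.17 in null against −6.89, −6.97 and −7.35 in wild type. These are dim values, well above background on 2 null arrays and 1 wild-type array. Its change of 0.92 had a limma adjusted p of 0.0215 and an adjusted p of 0.0987 under the block. Without null pool 1, null pool 2, null pool 3, wild-type pool 2 or wild-type pool 3 it was 0.051, 0.0693, 0.0672, 0.0695 or 0.054.

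Kcnj12, the other inward rectifier of this kind named for the heart, was not called. It stood at −3.69, −3.76 and −3.34 in null and −2.81, −3.02 and −3.24 in wild-type pools, and its change of −0.58 (interval −1.02 to −0.13) had a limma adjusted p of 0.104. Scaling to the array median brought this to 0.0475. Kcnj3 and Kcnj5, which pair to form the acetylcholine-gated channel of the atrium and pacemaker, did not pass. Kcnj3 changed by 0.28 (interval −0.15 to 0.71) and Kcnj5 by 0.10 (interval −0.34 to 0.55). Kcnj11, a pore of the ATP-sensitive channel, changed by −0.28 (interval −0.81 to 0.25). Its relative Kcnj8 was above background on 1 array, a wild-type one, and was not tested.

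Tandem-pore channels carry background potassium current. Among 9 tested, Kcnk10, a channel gated by stretch and lipids, was the one called. It stood at −2.36, −2.58 and −2.75 in null against −4.18, −4.33 and −4.78 in wild-type pools, without overlap, a change of 1.87 (SE 0.21, 3.65-fold, limma adjusted p = 0.00304). Within slides the difference was 1.82, 1.75 and 2.03, and the block gave an adjusted p of 0.00895. Kcnk3, the acid-sensitive background channel of the atrium, stood at 0.26, −0.34 and −0.89 in null and −0.74, −0.39 and −0.15 in wild type, overlapping throughout (change 0.11, interval −0.61 to 0.82). Kcnk13, named after its values were seen, spread most among the null pools of this class, at −3.19, −1.43 and −0.96, against −2.67, −2.39 and −3.26 in wild type. Its limma adjusted p was 0.336, and 0.0284 without null pool 1.

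Potassium channels gated by calcium or sodium were tested for 4 genes. Kcnt2, a sodium-activated pore, stood at −4.70, −4.79 and −4.64 in null against −5.83, −6.12 and −5.64 in wild-type pools. The null pools were nearly equal and all above wild type (change 1.15, SE 0.18, 2.22-fold, limma adjusted p = 0.0092), with an adjusted p of 0.0488 under the block. Kcnn2, a small-conductance calcium-activated pore found in atria, stood at −2.33, −2.16 and −2.01 in null and −2.36, −2.60 and −2.93 in wild type. Its groups barely separated, and the change of 0.47 had an interval of 0.01 to 0.93 (limma adjusted p = 0.18). Changes in the class ran from 0.22 to 1.15, with a median of 0.52.

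**Figure D3:**
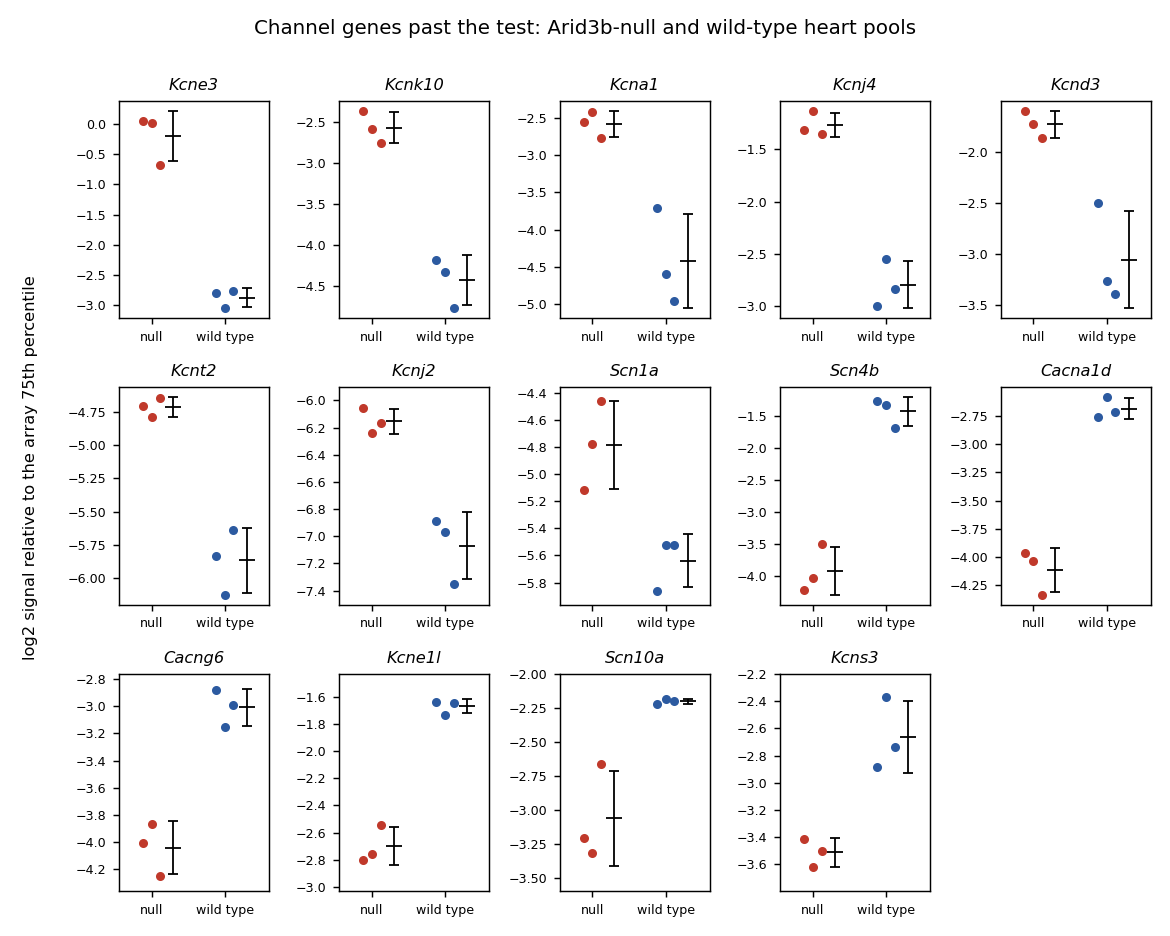
Log2 signal relative to the array's 75th percentile (vertical axis, its own range in each panel) of 14 called channel genes in each null (red) and wild-type (blue) pool, with bars for mean ± SD of 3 pools. None of the genes drawn has overlapping groups, and the widest gaps are those of Kcne3, at −0.68 or above in null and −2.78 or below in wild type, and Scn4b, at −3.50 or below in null and −1.69 or above in wild type.

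No pool was the highest or the lowest of its group for most of the family. Over the 88 tested genes, null pools 1, 2 and 3 were the highest of their group for 33, 29 and 26 genes, and wild-type pools 1, 2 and 3 for 37, 21 and 30. They were the lowest of their group for 33, 16 and 39 genes in null and for 26, 29 and 33 in wild type, so that null pool 3 was lowest more often than null pool 2. The median SD within a group was 0.28 in null and 0.30 in wild type for the channel genes, against 0.23 and 0.25 over all genes. Genes with several probes allow a further look. More than 1 kept probe was present for 25 channel genes, and in 16 of these all probes changed in the same direction, as they did for all 4 called genes with more than 1 kept probe. This agreement was counted for channel genes only and was not tested.

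With the slide as a block, 7 channel genes were called higher and 2 lower in null, a share to be read beside 3.4% called over all genes in that fit. Those lower were Scn4b and Cacna1d, and those higher included Kcne3, Kcnk10, Kcna1, Kcnj4, Kcnd3 and Kcnt2. Calls in all 14 alternatives were made for Kcne3, Kcnk10, Kcnj4, Kcnt2 and Scn4b, among others. Cacna1d was called in 13 of them, with a limma adjusted p of 0.0511 under normexp background correction, which also ended the calls of Cacng6, Kcnj2, Kcns3, Scn10a and Scn1a. None of the 15 called genes changed sign in any alternative.

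**Figure D4:**
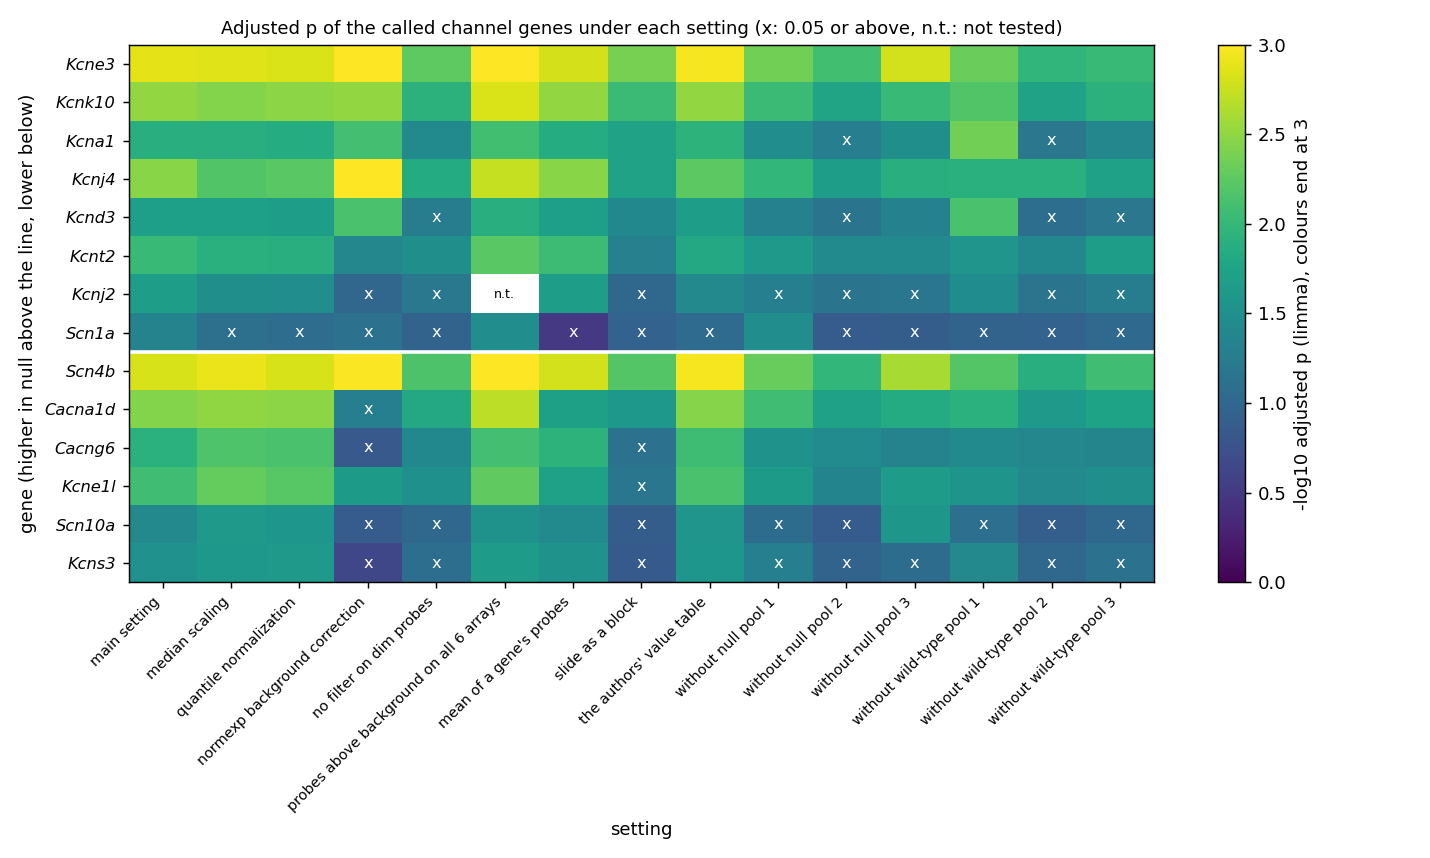
Negative log10 of the limma adjusted p (colour, ending at 3) of 14 called channel genes (rows, higher in null above the line and lower below) under the main setting and 14 alternatives (columns), with x where the value is 0.05 or above and n.t. where the gene was not tested. The rows of Kcne3, Kcnk10, Kcnj4, Kcnt2 and Scn4b hold no x, and that of Scn1a holds 12.

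Members too dim to test were numerous. Of the 48 dim genes, 28 were not well above background on any array, 14 on 1 array and 6 on 2. Among the 20 with some signal, 15 were above background on wild-type arrays only, 2 on null arrays only (Cacng2 and Cacng3) and 3 on both. This split was counted for channel genes only. The wild-type arrays were also brighter at the 75th percentile. They had 29139 to 31039 spots well above background, against 27136 to 29149 on the null arrays. The part of this in the counts was not tested. The filter kept 60.4% of 187 channel probes, against 75.9% of 26424 probes with a symbol. The genes tested are therefore those bright enough to measure, and no count over them speaks for all 141.

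Motif words were counted over the promoter windows of all genes as a description. A hypoxia core was held by 46.7% of 27025 genes with a window, by 34 of 63 tested channel genes with one (54.0%), by 4 of 7 called higher and by 6 of 6 called lower. An AT-rich word was held by 25.6% of all genes, by 10 of the 63 channel genes (15.9%), by 1 of 7 called higher and by 1 of 6 called lower. Kcna1 had no window in the table. A match is a run of letters and not a binding site, and a window without one says nothing of the factor.

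Genes outside the naming rule that act with these channels were taken as a list of 52, of which 50 were tested, with 3 higher, 1 lower and a median change of 0.09. Dpp6, an auxiliary protein of the Kv4 pores, stood at −1.35, −0.91 and −1.07 in null against −2.64, −3.07 and −3.18 in wild-type pools. It was called higher, as Kcnd3 was (change 1.85, SE 0.21, 3.61-fold, limma adjusted p = 0.00308). Abcc8, the sulfonylurea receptor that surrounds the Kcnj11 pore, was higher by 0.79 (limma adjusted p = 0.0293). Its adjusted p was 0.146 under the block and 0.112, 0.0839, 0.0595, 0.091 and 0.0847 without null pool 2, null pool 3, wild-type pool 1, wild-type pool 2 and wild-type pool 3. Fgf12, an intracellular factor that tunes sodium channel inactivation, was higher by 1.15 (limma adjusted p = 0.0268). Without null pool 1, null pool 2, null pool 3, wild-type pool 2 or wild-type pool 3 its adjusted p was 0.0543, 0.0536, 0.0656, 0.0978 or 0.0829. Cav3, the muscle caveolin that scaffolds sodium and calcium channels, stood at −1.47, −1.10 and −1.14 in null against 1.35, 0.76 and 1.23 in wild type. It was called lower by 5.08-fold (change −2.35, SE 0.21, limma adjusted p = 0.00139). Of the rest, 0 of 4 gap junction genes, 0 of 4 inhibitors of calcium channels of the Rrad kind, 0 of 8 pumps, exchangers and release channels and 0 of 9 pacemaker and conduction transcription factors were called, against 10.5% of all genes.

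Markers of other cells were counted in the same way. Each count, here and in the next 2 paragraphs, is to be read beside 6.64% of all genes called higher and 3.81% called lower. All 7 megakaryocyte and platelet markers were higher in null, with a median change of 2.75 and a summed linear signal of 42.9 to 69.0 in null against 4.74 to 7.58 in wild-type pools. Primitive erythroid markers summed to 658.7 to 972.8 in null and 240.6 to 503.9 in wild type, with 1 of 7 called higher. Endoderm markers summed to 79.1 to 92.3 in null and 41.1 to 44.8 in wild type, but that sum is mostly the keratin Krt18. Of 8 endoderm markers Krt18 and Sox17 were called higher (changes 1.09 and 1.22), the list's median change was 0.12, and Shh, Foxa2 and Foxa1 had changes of −1.58, −0.54 and −0.37 without passing. The part of megakaryocytes and platelets, or of the other cells listed, in the channel values was not tested.

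Neuron markers matter here because several called channels are best known from neurons. Of 11 tested, Gap43 was higher and Dcx, Nefm and Tubb3 were lower in null, with summed linear signals of 10.1 to 12.2 in null and 7.37 to 11.9 in wild-type pools. Nefm, a neurofilament, changed by −2.22 and Tubb3, a neuronal tubulin, by −1.16. Of 6 neural progenitor markers tested, Nkx6-1 and Olig3 were lower, and Pax6 was dim. Olig3 was above background on 0 null arrays, so it entered the test through the wild-type arrays and its call is not read as support. Endocrine pancreas markers, a cell kind that also uses Cacna1d and Abcc8, summed to 0.216 to 0.284 in null and 0.311 to 0.397 in wild type, with Pdx1 above background on 0 arrays. Of the 3 called lower, Gcg and Neurod1 were above background on 0 null and 3 wild-type arrays and Neurog3 on 1 null and 3 wild-type arrays, so they entered the test through the group where they are high and their number is not read as support. Iapp and Ins2 had changes of 0.69 and 0.33 without passing. The part of these cells in the channel values was not tested.

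The remaining lists were smaller or closer between groups. Endothelial markers summed to 11.2 to 14.7 in null and 9.35 to 10.1 in wild type, with 0 of 6 called. Smooth muscle had 1 of 4 called higher, epicardium 1 of 5, neural crest and mesenchyme 1 of 6 and macrophages 2 of 5, beside 6.64% of all genes. Lists this short cannot tell such counts from that share. Of 3 trophoblast markers tested 0 were called and Tpbpa was above background on 0 arrays, and their sum ran from 0.178 to 54.6 over the null pools and from 3.47 to 11.2 over the wild-type pools. The part of such cells in the channel values was not tested.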

How the data were processed

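Gene expression was measured on 6 single-colour arrays, 3 Arid3b-null and 3 wild-type pools of 4 embryos. Intensity values were deposited as scanner output. Per the file headers, Agilent Feature Extraction (version 10.7.3.1, design 026655) subtracted the background and did not scale arrays to each other. Log2 values in the table the authors deposited cover 24158 probes, and how they were made is not stated. They correlated above 0.999 with the scanner signal on each array and served as an alternative. Other deposited columns, which the scanner software wrote, per the file headers, flag spots above background, saturated or outlying.

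The log2 of the processed signal was taken and each array's 75th percentile of non-control spots subtracted. Outlying spots were dropped and spots of a probe averaged. Probes well above background on at least 3 of 6 arrays were kept, 26846 of 39429, and the brightest stood for its gene. Symbols came from RefSeq accessions in a table of GRCm38.p6 (26424 probes with a symbol, 13005 without), while the file headers name mm9, so only promoter windows, from RefSeq on GRCm38.p6, carry positions. The comparison used lmFit and eBayes of limma (version 3.58.1, R version 4.3.3) over 21798 genes, with Benjamini-Hochberg adjustment. Files were read with the package data.table (version 1.17.8). All adjusted p values are from limma. With 3 pools a group, the smallest p an exact permutation test allows is 0.1, so none was run. The procedure was tested on simulated data. SE is the moderated standard error.

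Named were every called channel gene, a list of textbook heart channels whatever their values, and the 2 not called members nearest the threshold in each direction. A few genes that this rule takes are not reported here. Members, lists and tests were chosen with earlier results of these data known. Pools of the same number share a slide, and their deviations from the group means correlated at −0.41, −0.09 and −0.41 across genes, so the groups were compared without a block and the slide block is an alternative. The other alternatives were median scaling, quantile normalization, normexp correction with an offset of 50 on the median spot signal, no filter on dim probes, probes above background on all 6 arrays, the mean of a gene's probes, the authors' table and leaving out each array.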

Additional observations from a re-analysis of the deposited data

How the results depend on the processing

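Main counts were 9 channel genes higher and 6 lower in null. The 6 lower became 10 under median scaling (with Kcna5, Kcnip1, Kcnj12 and Kcnmb4), 2 under normexp correction and 2 with the slide as a replicate block. Of those gained, Kcnip1 entered the test through the group where it is high. Leaving out each pool in turn gave 4 to 6 lower and 5 to 9 higher, with 5 higher without null pool 2 or without wild-type pool 2. The other alternatives gave 7 to 9 higher, 7 of them under the replicate block. That block fit called 3.4% of all genes, against 10.5% in the main fit. Counts without a pool or under normexp correction are given without such a share and are a description only. The median change over the channel genes, 0.05, ran from −0.09 under median scaling to 0.27 under normexp correction, and the median of all genes from −0.11 under median scaling to 0.17 without the filter. No called gene reversed. The numbers of the pools did not pair the samples (correlations of −0.41, −0.09 and −0.41), so a call lost under the block is not described as a weaker effect. Probes near background, such as those of Kcnj2 and Kcnip1, limit what can be said of their size.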

Other observations

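Other channel families, listed after the data were seen, gave these values in null against wild-type hearts. Among 20 transient receptor potential genes tested, Trpc1 (log2 change 1.67), Trpc6 (1.38) and Trpm1 (1.53) were higher and 0 lower. ATP-gated P2rx channels had 3 of 6 higher, P2rx1 (1.17), P2rx3 (1.23) and P2rx4 (1.11), with a median change of 0.96. Of 13 ionotropic glutamate receptor genes, Grik3 (2.38, 5.22-fold, limma adjusted p = 0.00106), Grin1 (1.88) and Grin2c (0.99) were higher and 0 lower. Clcn3, a member of the Clcn gene family, was higher (1.25). Of 6 acid-sensing and epithelial sodium channel genes, Asic4 (1.37) was higher and Scnn1a (−0.91) lower. Itpr3 (0.95) was higher among 5 ryanodine and inositol trisphosphate receptor genes, and Gabrp (1.33) among 10 GABA and glycine receptor genes. In the anoctamin and nicotinic families 0 of 6 and 0 of 7 were called. Called higher were 6.64% of all genes tested and called lower 3.81%.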
